A study of Mus musculus with 6 samples.

Results

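Transcripts of 10 genes of the NF-kB system were followed in CD41+ cells from Txnip knockout and wild-type mice. The set held the 5 Rel-family subunits (Nfkb1, Nfkb2, Rel, Rela and Relb), the 3 classical inhibitors (Nfkbia, Nfkbib and Nfkbie), the deubiquitinase gene Tnfaip3 and the kinase gene Ikbkb. They were chosen by symbol among the 24410 genes of the deposited expression table, and all 10 were found there. The study asked what loss of Txnip changes while megakaryocytes, the cells that shed platelets, develop. There were 3 knockout libraries (KO 1 to KO 3, genotype Txnip -/-) and 3 wild-type libraries (WT 1 to WT 3), all of the C57BL/6 strain and from mice of 5 months. Bone marrow cells without mature lineage markers were cultured for 3 days with 100 ng/mL Scf, 20 ng/mL mTpo and 10% serum, and cells with surface CD41 were then sorted. How Txnip was deleted, and whether marrow of several mice was pooled, is not given in the sources used here.

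NF-kB is a family of dimeric transcription factors that switch on genes of inflammation, survival and host defence. In a resting cell the inhibitors, called IkB proteins, hold the dimers in the cytoplasm. Signals from cytokine and microbial receptors activate the IkB kinase, whose catalytic beta subunit is encoded by Ikbkb, and the inhibitor is then degraded. Several genes of the system are themselves targets of NF-kB, among them Nfkbia, Nfkbie and Tnfaip3, so activation raises their transcripts and their proteins in turn end it. Myeloid cells use the system heavily.

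Because feedback through NF-kB acts on promoters of its own genes, the 250 bases upstream of each RefSeq start site (build GRCm38.p6) were searched for the 10-base NF-kB consensus motif on both strands. The promoter table held 7 of the 10 genes, and 5 of these had a match in at least 1 window, namely Nfkbia, Nfkbie, Tnfaip3, Nfkb2 and Rel. Rela and Nfkbib had none, and Nfkb1, Relb and Ikbkb are named only. Over all genes in the table, 4.46% had a match, and over all windows 3.90%. The sequences of the 5 genes are shown because they carry these matches. They run 5′ to 3′ along the gene and end at the base before its start site, and capitals mark bases within a match.
Nfkbia, chr12:55492648-55492897, minus strand: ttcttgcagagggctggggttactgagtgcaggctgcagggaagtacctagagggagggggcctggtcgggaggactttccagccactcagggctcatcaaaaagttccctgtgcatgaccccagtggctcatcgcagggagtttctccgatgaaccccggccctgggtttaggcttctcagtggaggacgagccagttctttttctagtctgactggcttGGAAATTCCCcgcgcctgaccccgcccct
Nfkbie, chr17:45555450-45555699, plus strand: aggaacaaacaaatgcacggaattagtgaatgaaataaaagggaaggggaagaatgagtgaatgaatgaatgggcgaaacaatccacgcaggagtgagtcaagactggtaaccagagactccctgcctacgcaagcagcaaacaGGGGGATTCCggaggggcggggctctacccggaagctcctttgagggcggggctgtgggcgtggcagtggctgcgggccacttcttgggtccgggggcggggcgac
Tnfaip3, chr10:19015411-19015660, minus strand: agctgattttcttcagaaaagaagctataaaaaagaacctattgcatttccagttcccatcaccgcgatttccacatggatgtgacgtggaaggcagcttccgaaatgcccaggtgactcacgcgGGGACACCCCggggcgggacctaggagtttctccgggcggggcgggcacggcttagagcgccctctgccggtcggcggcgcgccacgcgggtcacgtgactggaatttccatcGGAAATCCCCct
Nfkb2, chr19:46304487-46304736, plus strand: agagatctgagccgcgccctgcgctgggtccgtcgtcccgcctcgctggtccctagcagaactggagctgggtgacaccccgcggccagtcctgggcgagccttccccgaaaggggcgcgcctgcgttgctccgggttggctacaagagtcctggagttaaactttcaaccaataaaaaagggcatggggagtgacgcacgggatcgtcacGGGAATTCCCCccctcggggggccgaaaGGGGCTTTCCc
Rel, chr11:23770970-23771219, minus strand: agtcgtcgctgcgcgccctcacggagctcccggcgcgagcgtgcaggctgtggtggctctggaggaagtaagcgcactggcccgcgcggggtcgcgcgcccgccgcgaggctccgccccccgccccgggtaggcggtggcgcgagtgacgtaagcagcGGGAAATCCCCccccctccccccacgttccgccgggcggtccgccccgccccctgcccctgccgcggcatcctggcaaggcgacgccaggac
The Nfkbia match lay 29 to 20 bases before the start site. Tnfaip3 had matches at 125 to 116 and at 12 to 3 bases, and its other window had none. In Nfkb2, the stretch from 39 to 29 bases before the start was 11 bases long because matches on both strands overlapped there, and a second match lay at 11 to 2 bases. Windows at both other start sites of Nfkb2 also had a match. The Rel stretch, 92 to 82 bases before its start, again held overlapping matches on both strands. A match describes these letters and does not show that a factor binds.

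The unit is FPKM, a count of fragments scaled by transcript length and by the mapped total, which lets levels of different genes be compared. The cells held megakaryocyte transcripts. Itga2b, which encodes CD41, lay between 92.8 and 152 FPKM in KO and between 83.2 and 111 in WT. Pf4, platelet factor 4, lay between 476 and 1545 FPKM in KO and between 465 and 1435 in WT, while Tubb1, the tubulin of late megakaryocytes, stayed at or below 1.47. Txnip was listed at 0, 0.04 and 0 FPKM in KO 1 to KO 3, against 112, 228 and 143 in WT 1 to WT 3, which checks the genotype labels. Libraries that share a number were alike across genotypes, and number 3 held Xist (91.6 FPKM in KO 3 and 48.1 in WT 3) where numbers 1 and 2 held the Y-linked Ddx3y. Ddx3y was at 0 in KO 3 and WT 3, so number 3 read as female and numbers 1 and 2 as male. "Pair" below means the KO and WT library of a number, and what a number stands for is not given in the labels. The file states no depth. The spacing of low values put it near 14600000 and 25600000 fragments in KO 1 and KO 3 and at 19100000 to 20100000 in the WT libraries, and gave no clear value for KO 2.

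Among the subunits, Nfkb1, which encodes the precursor of p50, was the most abundant in every library. It was at 54.07, 60.06 and 40.68 FPKM in KO 1 to KO 3, against 56.4, 44.14 and 51.45 in WT 1 to WT 3. The groups overlapped, with the highest and the lowest value both in KO. Nfkb1 took between 38.4% and 61.1% of the summed FPKM of the 5 subunits in KO and between 47.9% and 61.6% in WT. It lies on chromosome 3, as Txnip does, and KO minus WT came to 0.015 for it as log2(FPKM + 1) (SE 0.22).

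Rela encodes the RelA subunit, which carries a transactivation domain and is the main partner of p50. Rela was at 25.98, 13.72 and 12.63 FPKM in KO 1 to KO 3, against 21.78, 10.55 and 13.99 in WT 1 to WT 3. KO 1 and WT 1 stood above the other 4 libraries, which overlapped. Rel, for c-Rel, a subunit best known from lymphocytes and myeloid cells, was at 21.58, 5.91 and 4.99 FPKM in KO, against 11.96, 6.19 and 4.4 in WT. Here too number 1 was high in both genotypes, and KO 1 stood well above WT 1.

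In the alternative pathway the Nfkb2 precursor is processed and pairs with RelB. Nfkb2 was at 26.23, 9.13 and 8.58 FPKM in KO 1 to KO 3, against 18.17, 6.09 and 10.65 in WT 1 to WT 3. In numbers 1 and 2 the KO value was the higher one and in number 3 the WT value. Relb was at 13.07, 9.48 and 4.37 FPKM in KO, against 9.38, 4.74 and 3.78 in WT. KO was above WT in each pair, although the groups overlapped. By mean over the 6 libraries the order of subunits was Nfkb1 (51.1 FPKM), Rela (16.4), Nfkb2 (13.1), Rel (9.17) and Relb (7.47), and below Nfkb1 the neighbours' ranges overlapped.

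Nfkbia, for IkB-alpha, the inhibitor that is resynthesised soonest after activation, had the highest mean of the 10 genes over the 6 libraries, 83.4 FPKM, although in WT 3 it was below Nfkb1. It was at 148.31, 85.69 and 42.56 FPKM in KO 1 to KO 3, against 100.8, 72.36 and 50.42 in WT 1 to WT 3. Number 1 was the highest and number 3 the lowest in both genotypes, and the groups overlapped. Nfkbib, for IkB-beta, was at 15.96, 8.53 and 8.97 FPKM in KO, against 14.67, 6.99 and 10.59 in WT. Nfkbie, for IkB-epsilon, was at 18.28, 10.24 and 6.77 FPKM in KO, against 12.34, 5.87 and 6.06 in WT, with KO higher in each pair. Nfkbia took between 73.0% and 82.0% of the summed inhibitor FPKM in KO and between 75.2% and 84.9% in WT. The summed inhibitors divided by the summed subunits gave 1.06 ± 0.24 in KO and 1.02 ± 0.20 in WT (SD, n = 3 each). The lowest ratios were those of number 3, 0.82 in KO 3 and 0.80 in WT 3.

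Tnfaip3 encodes A20, an enzyme that edits ubiquitin chains and shuts down signalling to the IkB kinase. It was at 53.59, 17.85 and 10.01 FPKM in KO 1 to KO 3, against 34.23, 16.4 and 11.65 in WT 1 to WT 3. Of the 10 genes it varied most over the 6 libraries, 5.35-fold between KO 1 and KO 3. Ikbkb was at 31.1, 16.67 and 19.86 FPKM in KO, against 23.8, 14.62 and 19.03 in WT, and KO was above WT in each pair. The ratio of Tnfaip3 to Ikbkb was 1.72, 1.07 and 0.50 in KO 1 to KO 3, against 1.44, 1.12 and 0.61 in WT 1 to WT 3. It was highest in number 1 and lowest in number 3 in both genotypes.

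**Figure D1:**
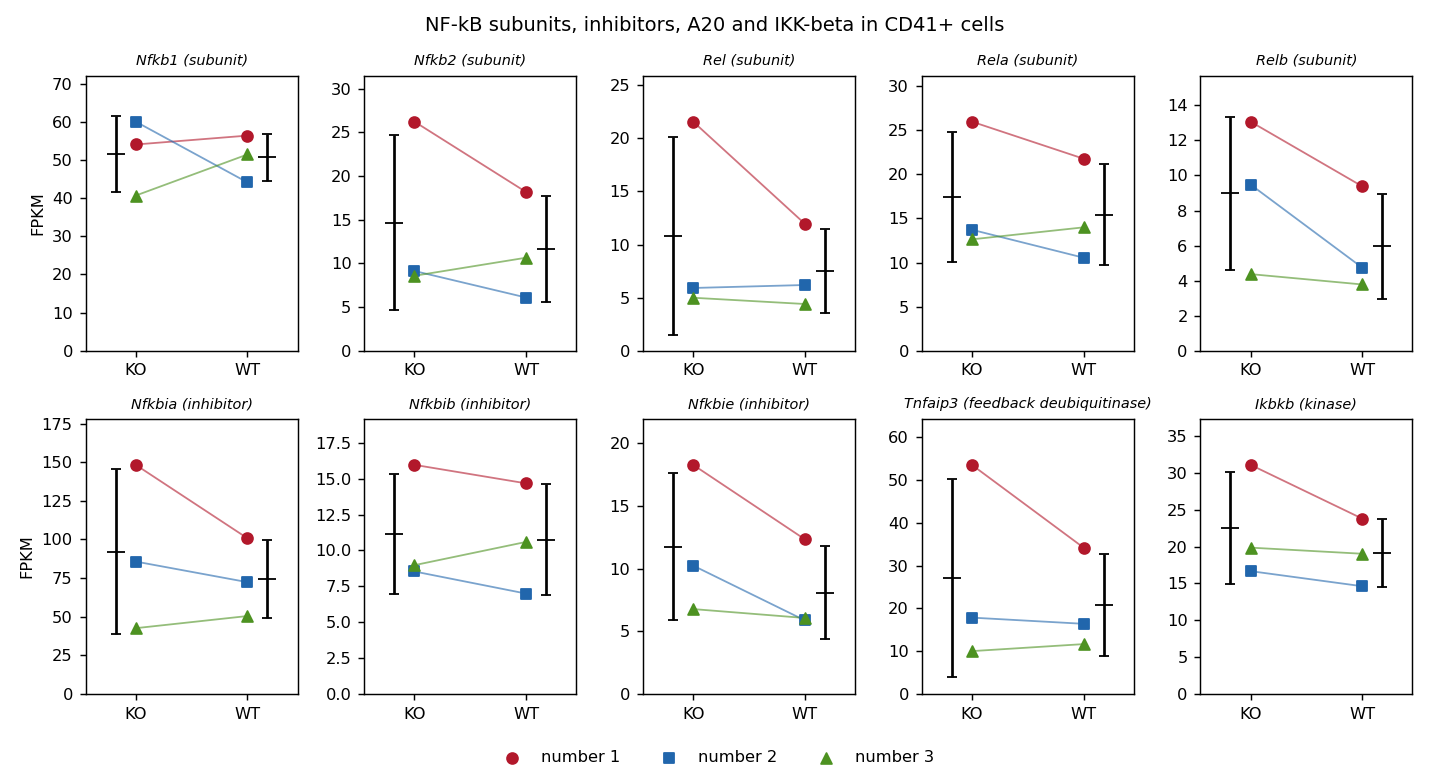
FPKM of each of the 10 genes in the KO libraries (left) and the WT libraries (right), with 1 colour and marker per replicate number, a line joining each pair and the mean with SD (n = 3) in black. In all genes but Nfkb1 the number 1 libraries are the highest of their genotype, and KO 1 is the highest of all 6.

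None of the 10 genes passed in the comparison of KO with WT. The test was limma on log2(FPKM + 1), run over 11249 genes that reached 1 FPKM in 3 or more libraries, at a Benjamini-Hochberg adjusted p of 0.05, and each of the 10 had an adjusted p of 1.00. Among all genes tested, 0.00889% were called higher in KO and 0.00889% lower. At an unadjusted p under 0.05 (limma), 0 of the 10 were higher, where 0.409% of all genes were. With the replicate number as a block 0 of the 10 passed as well (background 0.0178% higher), and 2 were higher at an unadjusted p under 0.05, where 4.66% of all genes were. In none of the 10 genes did the ranges of KO and WT stay apart, against 3.32% of all genes with KO above and 1.03% with KO below.

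The fitted differences were all above 0, between 0.015 for Nfkb1 and 0.49 for Relb, with a median of 0.19. Over all genes tested the median was 0.061 and 63.4% were above 0. For Relb the difference was 0.49, with a 95% interval of −0.46 to 1.44 without the block and 0.10 to 0.89 with it (limma, adjusted p = 0.683 with the block), higher in 3 of 3 pairs. For Nfkbie it was 0.46, with intervals of −0.43 to 1.35 and 0.10 to 0.82 (limma, adjusted p = 0.683 with the block), likewise higher in 3 of 3 pairs. These 2 genes had the smallest p of the 10. For Nfkbia the difference was 0.18, with an interval of −0.20 to 0.57 with the block, and for Tnfaip3 it was 0.18, with an interval of −0.21 to 0.57. Differences of either sign are within those intervals.

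The unblocked differences moved with the library left out. Without KO 1, which leaves the high WT 1 without its pair, the differences of Relb and Nfkbie were above 0, 2 of the 10, and the median was −0.19. Relb ran from 0.19 (without KO 1) to 0.88 (without KO 3) and Nfkbie from 0.11 (without KO 1) to 0.77 (without WT 1) over the 6 libraries left out. For the 10 genes the median came to 0.061 without WT 2 and 0.091 without WT 3, and 0.35, 0.58 and 0.51 without KO 2, KO 3 and WT 1. With the block and without pair 1, 9 of the 10 were above 0, with a median of 0.079, against 0.069 for all genes in that fit. Rescaled to a common sum, the median of all genes was 0.22 and that of the 10 genes 0.36. Rescaled by median ratio, it was −0.0089 for all genes and 0.12 for the 10, of which 8 were above 0, and with quantile normalization 0.0077 and 0.18, with 9 above 0.

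The pairs differed from each other. In pair 1, 9 of the 10 genes were higher in KO, with a median difference of 0.47, where 55.3% of all genes were higher. In pair 2 it was also 9 of 10, with a median of 0.30, against 58.8% of all genes. In pair 3 it was 4 of 10, with a median of −0.17, against 57.8% of all genes. Relb, Nfkbie and Ikbkb were higher in KO in all 3 pairs, 3 of 10 where the share among all genes was 20.4%, and 0 of 10 were lower in all 3, against 8.68%. Each pair is 1 library against 1, so the difference between pairs was not tested. Pair 3 is also the pair that read as female, so sex cannot be told apart from the pair here.

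**Figure D2:**
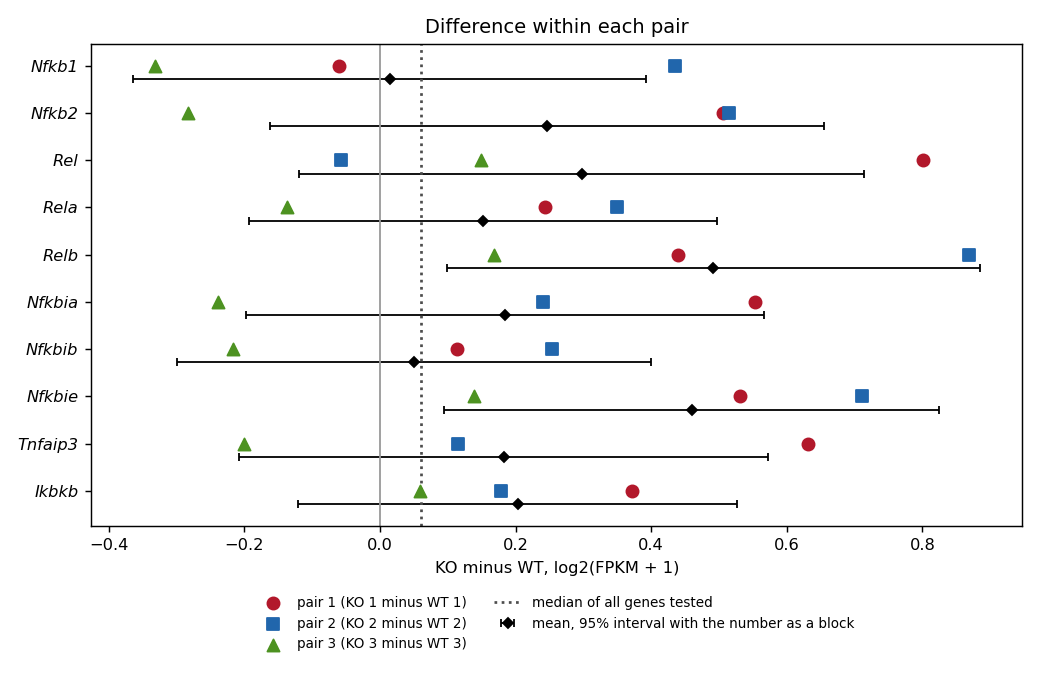
KO minus WT on the log2(FPKM + 1) scale for each gene, as the values of the 3 pairs (coloured markers) and their mean with its 95% interval from the fit with the number as a block (black). The pair 3 values are the lowest in every gene but Rel, and the intervals of Relb and Nfkbie alone do not reach 0.

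In these 10 genes the libraries differed more by replicate number than by genotype. In 9 of the 10 genes the number 1 library was the highest of both its KO and its WT group (38.4% of all genes), and in 8 of 10 both number 1 libraries stood above the other 4 (32.4% of all genes). A moderated F test over the 3 numbers, with genotype as a covariate, called 9 of the 10 genes (limma, adjusted p = 0.0211 or below), where it called 35.1% of all genes. This test was chosen after the values had been seen. Nfkb1 was the exception (limma, adjusted p = 0.551). The number took between 76.3% and 94.3% of the variance of those 9 genes over the 6 libraries and 32.3% for Nfkb1, and the median over all genes was 73.5%. Genotype took between 0.15% and 17.9% in the 10 genes, with a median over all genes of 5.57%. A factor with 3 levels takes a larger share than one with 2, on average, when neither has an effect.

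Between numbers 1 and 3 the difference was largest for Tnfaip3 among the 10 genes. Tnfaip3 averaged 43.9 FPKM in number 1, 17.1 in number 2 and 10.8 in number 3 over both genotypes. Its difference was 1.28 (SE 0.22) between numbers 1 and 2 and 1.89 (SE 0.22) between numbers 1 and 3 (limma, adjusted p = 0.00178 and 0.00181), in the same direction in both genotypes. Between numbers 1 and 2 it was largest for Nfkb2, at 1.43 (SE 0.23). Rel averaged 16.8, 6.05 and 4.70 FPKM in numbers 1, 2 and 3, and differed by 1.28 (SE 0.23) and 1.59 (SE 0.23). Nfkbia averaged 125, 79.0 and 46.5 FPKM and differed by 0.63 (SE 0.21) and 1.38 (SE 0.21). Between numbers 1 and 2 limma called 9 of the 10 genes, where it called 41.1% of all genes, and between numbers 1 and 3 it called 7 of 10, against 11.9%. Between numbers 2 and 3 it called 0 of 10, against 4.54%. Number 3 also differs from numbers 1 and 2 in sex, by its sex-linked transcripts. Sex therefore cannot be told apart from the number in comparisons with number 3, and it enters the F test and the variance shares. The medians of the 10 genes were 0.88, 1.11 and 0.21 in these comparisons, and those of all genes 0.19, 0.11 and −0.080.

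The number result varied with how low genes were filtered and with KO 1. With at least 5 FPKM required in 3 libraries, limma called 9 of the 10 genes and 38.6% of all. With all genes above 0 FPKM in the fit, limma called 0 of the 10 genes and 0.088% of all, and without KO 1 it called 5 of 10 and 14.9% of all.

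**Figure D3:**
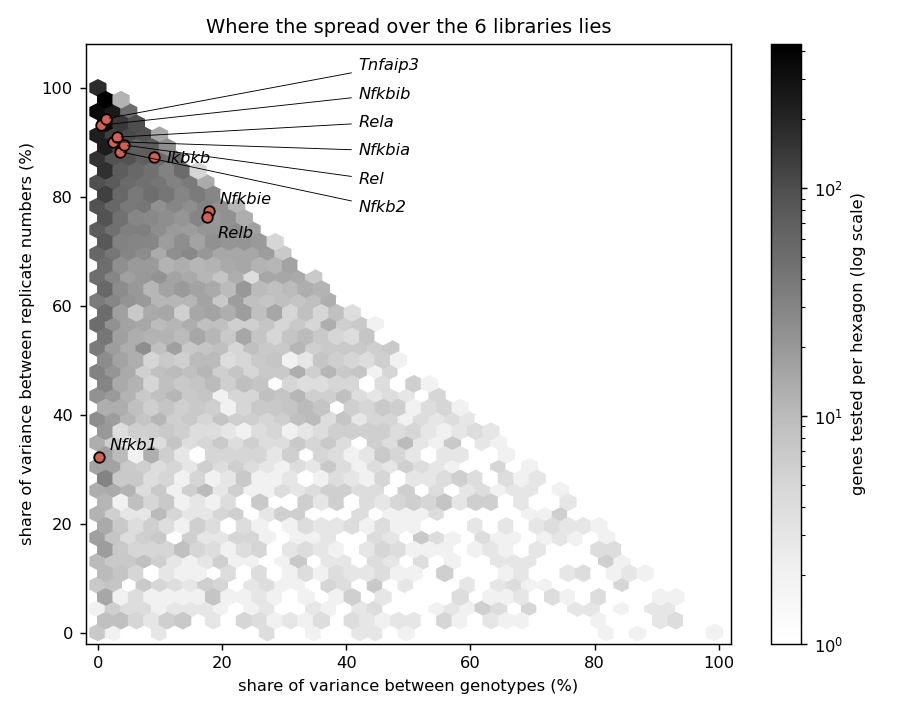
Share of each gene's variance over the 6 libraries that lies between replicate numbers (vertical axis) and between genotypes (horizontal axis), in percent of the total sum of squares of log2(FPKM + 1). Shading counts all 11249 genes tested and red points are the 10 NF-kB genes, of which all but Nfkb1 lie above 76% between numbers.

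Summed markers of other cells and summed immediate early genes also differed between the libraries. These sums were not tested. The 19 immediate early genes, which respond to stimulation within minutes, summed to 792, 430 and 313 FPKM in KO 1 to KO 3, against 483, 347 and 290 in WT 1 to WT 3, so number 1 was again the highest of each genotype. Of them 13 were highest in number 1 in both genotypes, where 38.4% of all genes tested were. In pair 1 all 19 were higher in KO, and in pairs 2 and 3 it was 11 each. Among all genes tested it was 55.3%, 58.8% and 57.8% in pairs 1, 2 and 3. Jun was at 159, 27.99 and 25.08 FPKM in KO and 69.0, 23.5 and 23.8 in WT, and Junb at 113, 112 and 62.8 in KO and 78.6, 78.9 and 58.5 in WT. The 12 mast cell and basophil markers summed to 1483, 1117 and 681 FPKM in KO, against 1631, 1166 and 1091 in WT. The 2 most abundant of them, the protease genes Mcpt8 and Prss34, had their lowest values, 208 and 173 FPKM, in KO 3.

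The summed megakaryocyte markers were lowest in number 1. The 16 genes summed to 864, 2119 and 1196 FPKM in KO 1 to KO 3, against 845, 1986 and 1582 in WT 1 to WT 3. Pf4 made up the largest part of the sum, at 476, 1545 and 772 FPKM in KO and 465, 1435 and 1129 in WT. Nfe2, a transcription factor of platelet production and the next most abundant, did not follow the sum, at 103.36, 137 and 92.5 FPKM in KO and 109, 103.54 and 114 in WT. The 22 monocyte, macrophage and dendritic markers summed to 3111, 2017 and 2742 FPKM in KO, against 1628, 2070 and 2847 in WT, with none at 0 in every library. In pair 1 all 22 were higher in KO, and in pairs 2 and 3 it was 15 and 10. Among all genes tested 55.3%, 58.8% and 57.8% were higher in pairs 1, 2 and 3. Lyz2, lysozyme, was at 1026 FPKM in KO 1 and 522 in WT 1, and Ly6c2, a monocyte surface protein, at 343 and 328. The 13 neutrophil markers in the table summed to 3876, 4595 and 8845 FPKM in KO, against 5847, 7469 and 7153 in WT, led by the granule enzymes Ctsg and Mpo, whose lowest values were 899 and 782 FPKM.

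Lymphocyte and erythroid markers were lower in sum. The 13 lymphocyte genes in the table, of which 2 passed the filter, summed to 84.98 to 112 FPKM in KO and 103 to 125 in WT. Most of it was Nkg7, a cytotoxic granule gene at 75.85 to 113 FPKM, followed by the B cell gene Cd79b at 7.30 to 15.6. Cd3e and Pax5, defining genes of T and B cells, were the 2 of the 13 genes listed at 0 in every library. The 12 erythroid genes, of which 8 passed the filter, summed to 116 to 164 FPKM in KO and 160 to 223 in WT. They were led by the transferrin receptor gene Tfrc and the globin gene Hbb-b2, while Hba-a2 was the 1 of the 12 at 0 in every library. Fewer cells of a type and less RNA per cell cannot be told apart in these bulk samples, and the part of these markers in the NF-kB values was not tested.

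The gene whose profile was compared with all others was Tnfaip3, since it had the largest SD of the 10 genes (0.89 on the log2 scale). The genes nearest to it, by the root mean square distance between profiles centred on their mean over 6 libraries, were Trib1 (distance 0.12), Osm (0.15), Ccl4 (0.18), Zc3h12a (0.20) and Tac4 (0.20). Trib1, a pseudokinase gene, was at 16.9, 4.75 and 2.92 FPKM in KO 1 to KO 3, against 9.57, 5.53 and 3.00 in WT 1 to WT 3. Osm, the cytokine oncostatin M, was at 30.1, 11.3 and 6.25 FPKM in KO, against 25.2, 8.83 and 8 in WT. Like Tnfaip3, both had number 1 highest and number 3 lowest in KO and in WT. That likeness follows largely from choosing them by closeness to its profile. Zc3h12a, an RNase gene that degrades inflammatory mRNAs, was at 17.5, 5.88 and 2.54 FPKM in KO, against 14.2, 5.38 and 5.08 in WT.

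**Figure D4:**
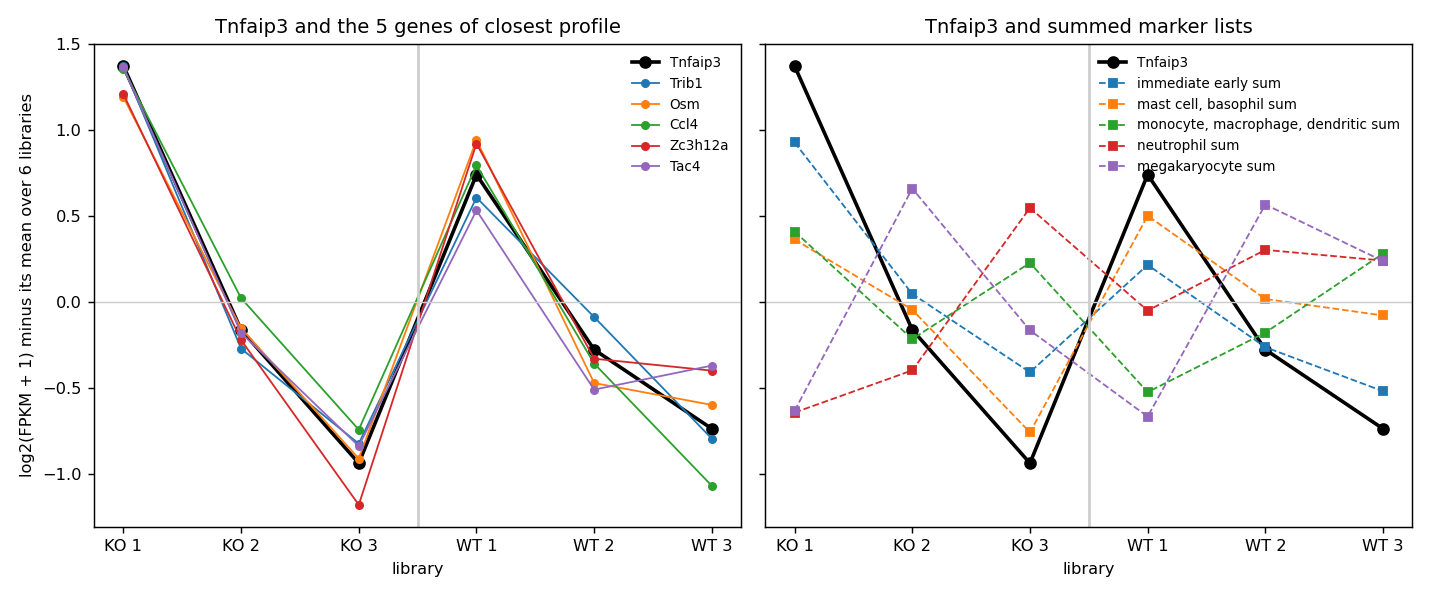
Log2(FPKM + 1) minus its mean over the 6 libraries, KO libraries left of WT libraries, for Tnfaip3 and its 5 nearest genes (left panel) and for Tnfaip3 and summed marker lists (right panel). Tnfaip3 is highest in KO 1 and WT 1, where the megakaryocyte sum is lowest.

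Genes that carry signals to the IkB kinase did not pass as single genes either. Their list also held its other subunit genes, Chuk and Ikbkg, and Btrc and Map3k8. Of 31 tested, 27 had differences above 0 and 4 below, where 63.4% of all genes were above 0. Their median was 0.15 against 0.061 over all genes, and 0 passed with or without the block. In all 3 pairs 12 of the 31 were higher in KO, where 20.4% of all genes were. Chuk was the 1 gene lower in all 3, where 8.68% of all genes were. The median was 0.026 without KO 1, 0.064 without WT 2 and 0.24 without WT 1. Map3k14, the kinase NIK that starts the alternative pathway, was at 7.28, 3.54 and 2.67 FPKM in KO 1 to KO 3, against 3.37, 1.43 and 1.52 in WT 1 to WT 3. It was higher in 3 of 3 pairs, by 0.79 on average, and did not pass (limma, adjusted p = 1.00, and 0.527 with the block). Card9, an adaptor of fungal receptors in myeloid cells, was at 40.01, 39.48 and 39.52 FPKM in KO, against 27.3, 29.4 and 31.7 in WT, with the groups apart (limma, adjusted p = 1.00, and 0.683 with the block). Tab1, a partner of the kinase TAK1, was 14.9 ± 0.93 FPKM in KO and 10.98 ± 1.19 in WT (SD, n = 3 each), also apart. These were 2 of the 31 genes, where 3.32% of all genes had KO above WT in this way. Tradd, an adaptor of TNF receptors, was 16.6 ± 1.84 FPKM in KO and 13.9 ± 2.20 in WT.

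Other IkB proteins and negative regulators numbered 26, of which 19 had differences above 0 and 7 below, where 63.4% of all genes were above 0. They had a median of 0.10, and 0 were past the test with or without the block. That median was 0.018 without KO 1, 0.19 without KO 3 and 0.18 without WT 1. Tnip2, which works with A20, was 10.9 ± 1.41 FPKM in KO and 7.96 ± 2.32 in WT (SD, n = 3 each), higher in 2 of 3 pairs. Usp18, an interferon-induced protease gene, was 6.67 ± 0.49 FPKM in KO and 4.98 ± 1.69 in WT. Socs3, a suppressor of cytokine signalling, was 9.39 ± 3.66 FPKM in KO and 7.30 ± 2.98 in WT. Nkiras2, which encodes a small GTPase that binds IkB, was 19.5 ± 4.46 FPKM in KO and 15.6 ± 2.68 in WT. None of these had KO apart from WT. Otulin and Itch, both enzymes of ubiquitin chains, had all KO values above all WT values and are named for that. They were 2 of the 26, where 3.32% of all genes were so, and did not pass (limma, adjusted p = 0.859 and 0.902 with the block).

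Textbook targets of NF-kB were tested for 43 of 52 genes. Of these 34 had differences above 0 and 9 below, where 63.4% of all genes were above 0. They had a median of 0.17, and 0 were past the test with or without the block. At an unadjusted p under 0.05 with the block (limma), 10 of the 43 were higher and 0 lower. It was 3 of the 31 signalling genes and 2 of the 26 regulators, with 0 lower in either. Of all genes, 4.66% were higher in this way. No list was tested as a set. Leaving out KO 1 turned this median to −0.060, and it was 0.28, 0.38 and 0.28 without KO 2, KO 3 and WT 1 and 0.11 and 0.10 without WT 2 and WT 3. Ccl5, a chemokine, was at 6.56, 2.27 and 0.93 FPKM in KO 1 to KO 3, against 3.00, 0.46 and 0.31 in WT 1 to WT 3. KO was higher in each pair, with a difference of 0.88 (limma, adjusted p = 1.00, and 0.529 with the block). Saa3, an acute phase gene, was at 49.7, 51.3 and 61.1 FPKM in KO, against 21.2, 15.4 and 63.7 in WT. Icam1, a leukocyte adhesion molecule, was 13.1 ± 4.38 FPKM in KO and 9.34 ± 2.7 in WT, and Ccl4, another chemokine, 17.7 ± 13.9 in KO and 12.4 ± 8.84 in WT (SD, n = 3 each), both higher in 3 of 3 pairs. Pim1, a survival kinase gene, was the 1 target of the 43 with all KO values above all WT values, where 3.32% of all genes were so. Medians of the 43 targets in pairs 1, 2 and 3 were 0.40, 0.12 and −0.031. By number the F test called 29 of the 43 targets, where it called 35.1% of all genes, and 28 were highest in number 1 in both genotypes, as were 38.4% of all genes.

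**Figure D5:**
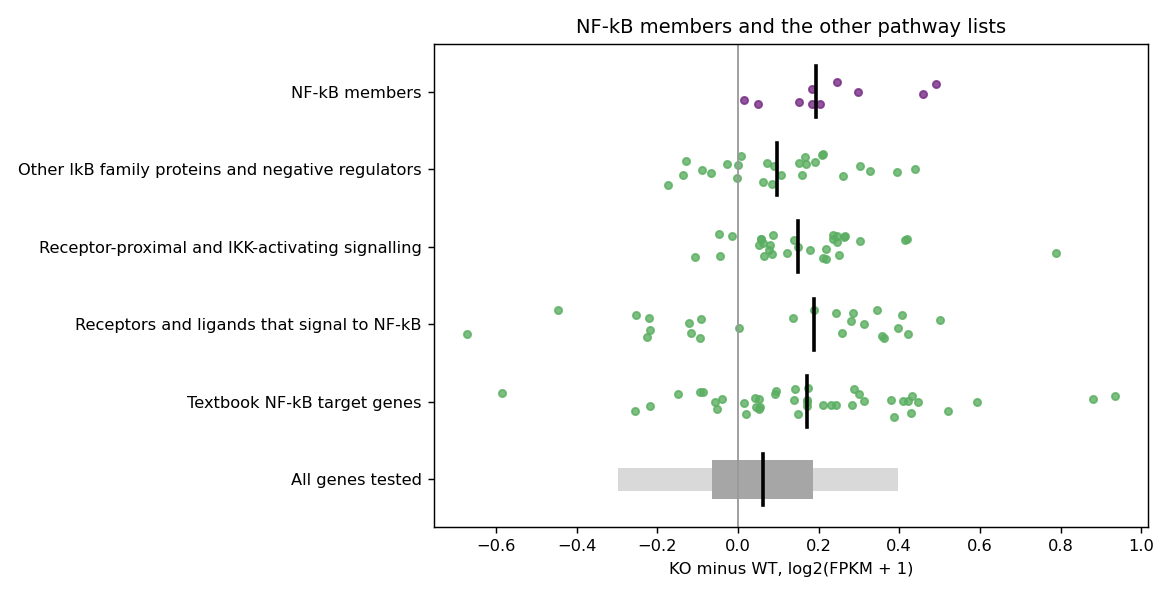
KO minus WT on the log2(FPKM + 1) scale for each tested gene (points) of the 10 NF-kB genes and of 4 other pathway lists, with each median as a black line. The bottom row shows all 11249 genes as the middle 50% (dark) and 90% (light), with a median of 0.061, and all list medians lie between 0.10 and 0.19.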

How the data were processed

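RNA was sequenced from 3 KO and 3 WT samples of sorted CD41+ cells. The deposited values are FPKM per gene symbol, 1 column per library. Tools named in the submitters' processing notes are RSEM 1.2.31, STAR 2.7.0a, Trimmomatic 0.39 and FastQC, and the build is mm9. For settings, strand, annotation and filters nothing is stated. RSEM shares reads between similar transcripts by estimation. The unit was read from the table, whose column sums ran from 715205 (KO 3) to 1131641 (WT 2), and Rpph1 and Rmrp took 30.4% of the WT 2 sum.

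Titles gave the groups and numbers. Genes that reached 1 FPKM in 3 or more libraries were fitted with limma 3.58.1 (R 4.3.3; eBayes with a trend, two-sided, no block) on log2(FPKM + 1). Changes of low genes are understated on that scale. All 10 genes passed the filter. The members and lists were chosen with earlier results of these data known. Lists are described by counts and medians. Named from each pathway list were the 4 genes of smallest p with the block, from each marker list the 2 most abundant, and for likeness the 5 genes nearest to the member of largest SD. Otulin, Itch, Pim1, Itga2b, Tubb1, Xist, Ddx3y, Cd3e, Pax5 and Hba-a2 were named outside that rule. So were Txnip, Chuk, Ikbkg, Btrc, Map3k8, Rpph1 and Rmrp.

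Deviations from group means correlated between same-numbered KO and WT libraries with r of 0.81, 0.59 and 0.38 across genes, so the numbers were taken as pairs. Whether all samples of a group come from separate mice is not given. The sex-linked transcripts place number 3 in other animals than numbers 1 and 2. The p-values cover only the spread among these libraries, which between numbers 1 and 2 is possibly technical.

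Depth was estimated from the spacing of low FPKM values of genes with a single transcript, at GENCODE lengths on GRCm38 less 200 bases. That build differs from mm9, so depths are approximate and no detection limit was computed. Promoters came from RefSeq on GRCm38.p6. Alternatives covered the pseudocount, filter, scaling, trend, block and each library.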

Additional observations from a re-analysis of the deposited data

How the results depend on the processing

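In all 20 alternatives to the comparison of KO with WT, limma called 0 of the 10 NF-kB genes, and their smallest adjusted p was 0.181 (Relb, with the replicate block and without pair 3). The replicate block gave 3 called genes among all tested, against 2 without it, and changed no call among the 10 genes or the pathway lists. Among all genes, 1 was called with no filter on low values, 53 with the block and a common sum, 36, 142 and 118 with the block and without pair 1, 2 or 3, and between 1 and 3 with a library left out. Relb and Nfkbie were above 0 in every alternative run, and with a library left out they ran from 0.19 (without KO 1) to 0.88 (without KO 3) and from 0.11 (without KO 1) to 0.77 (without WT 1). With each library left out in turn, the differences ran from −0.10 to 0.17 for Nfkb1, −0.24 to 0.61 for Nfkb2, −0.31 to 0.65 for Rel, −0.16 to 0.42 for Rela, −0.24 to 0.65 for Nfkbia, −0.22 to 0.28 for Nfkbib, −0.46 to 0.70 for Tnfaip3 and −0.044 to 0.39 for Ikbkb. The lowest values were those without KO 1, except for Nfkb1, which was lowest without KO 2. With the block, Tnfaip3 was at −0.042 without pair 1, and Nfkb1 and Nfkbib at −0.20 and −0.052 without pair 2. Rescaled by median ratio, with or without the block, Nfkb1 was at −0.060 and Nfkbib at −0.018, and with quantile normalization, with or without the block, Nfkbib was at −0.031. The number test called 0 of the 10 with no filter, between 5 and 9 with a library left out, and 7 to 9 under the other alternatives. Medians of the 4 pathway lists stayed within the SD over their pairs in 68 cases and not in 12. The causes were not tested. The fits that add a scaling to the block, and the number test with its alternatives, were chosen after seeing the data. Depth is known only roughly, and 3 libraries a group limit every comparison.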

Other observations

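Receptors and ligands that feed NF-kB were measured for 25 of 34 listed genes. Of these 15 had KO minus WT differences above 0 and 10 below, where 63.4% of all genes were above 0. They had a median of 0.19, and 0 were past limma's threshold with or without the block. At an unadjusted p under 0.05 with the block (limma), 1 was higher and 1 lower. The median was −0.11 without KO 1, −0.016 without WT 2, −0.094 among genes with at least 5 FPKM in 3 libraries and −0.034 with the block and without pair 1. Ltb, which encodes lymphotoxin beta, the ligand that drives the alternative pathway through its receptor, was at 8.52, 5.29 and 3.19 FPKM in KO 1 to KO 3, against 10.6, 8.79 and 7.95 in WT 1 to WT 3. It was lower in KO in 3 of 3 pairs, by 0.67 on average on the log2(FPKM + 1) scale, and did not pass (limma, adjusted p = 1.00, and 0.609 with the block). The TNF receptor gene Tnfrsf1a was 29.5 ± 3.63 FPKM in KO and 24.6 ± 6.51 in WT, and Tnfrsf1b was 39.97 ± 21.2 FPKM in KO and 30.5 ± 13.8 in WT (SD, n = 3 each), both higher in KO in 3 of 3 pairs. Tnfrsf11a, the receptor RANK, was at 3.85, 0.69 and 1.55 FPKM in KO, against 1.38, 0.26 and 1.46 in WT. Medians of the 25 genes in pairs 1, 2 and 3 were 0.48, 0.051 and −0.17.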
